A study of Canis lupus familiaris with 34 samples.

Results

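Osteosarcoma is a malignant tumor of bone-forming cells, and a splenic hematoma is a non-malignant mass of the spleen in which blood collects among stromal cells. Arrays carrying either of these labels were compared here as cultured cells, 5 from osteosarcoma lines and 3 from hematoma cultures, which are 8 of the 34 arrays in the series. The members were chosen by their sample labels alone, with no measured value involved. The osteosarcoma lines were OSCA20, OSCA23, OSCA59, OSCA75 and OSCA71, all from Golden Retrievers. The hematoma cultures came from Pippin, a Golden Retriever, Baxter, a Standard Poodle, and Kylie, a Keeshond. Each line or culture was a separate dog with 1 array, and the cells were cryopreserved cultures of early passage. The hematoma tissue had been grown in medium that favors endothelial cells, and no agent or genetic change distinguished the groups. The paper lists the osteosarcoma samples as cell lines and the hematoma samples as cultured cells. It gives OSCA20, OSCA23, Baxter and Kylie as males and OSCA59, OSCA75, OSCA71 and Pippin as females, with ages that varied in both groups. Tissue of origin, disease and kind of culture therefore changed together, and with breed in 2 of the 3 hematomas. These cannot be told apart by this design. The study also holds 10 hemangiosarcoma lines, from a malignant tumor of vessel-forming cells, which serve below as a second set of cultured cells.

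Osteoblasts arise from mesenchymal progenitors under transcription factors such as RUNX2, SP7, DLX5 and the MSX proteins, and mature ones make alkaline phosphatase and a collagen matrix with bone sialoprotein and osteocalcin. The stroma of the spleen is built from fibroblastic and contractile cells that lay down collagen and basement membrane. Osteosarcoma is known for complex karyotypes with many gains and losses of chromosome segments.

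Levels are log2 intensities from RMA, which subtracts background, equalizes the distributions of arrays and combines the probes of a set into a single value. A level difference of 1 is a 2-fold difference. The 8 arrays had values from 2.13 to 14.89 and medians from 5.57 to 5.69. Groups were compared with limma, a linear model that shares variance among probe sets, and a probe set passed at a Benjamini-Hochberg adjusted p of 0.05. Only probe sets above the median of their array on at least 3 of the 8 arrays were tested. A gene was read by the probe set with the highest mean over the 8 arrays, which left 9679 of 15115 genes for testing.

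OSCA20 was the only osteosarcoma line to correlate more with the hematomas than with its own group, by a small margin. Its mean correlation with the 3 hematoma arrays over all probe sets was 0.9548, and that with the other 4 osteosarcoma lines 0.9516. The array closest to OSCA20 was still an osteosarcoma line, OSCA23 at 0.971, followed by Pippin at 0.967. Pippin was also the hematoma closest to OSCA23 and OSCA59, at 0.956 and 0.930. For the other 4 lines the correlation with their own group was 0.941 to 0.966 and that with the hematomas 0.919 to 0.946. Over all pairs, arrays of the same group correlated at 0.956 and arrays of different groups at 0.933, a difference of 0.0231 (exact permutation test, two-sided, p = 0.0357, the smallest value that 5 against 3 arrays allow). Hematoma cultures correlated with the hemangiosarcoma lines at a mean of 0.961 over 30 pairs and with each other at 0.963 over 3 pairs. Osteosarcoma lines correlated with the hemangiosarcoma lines at 0.934, near their value with hematomas. OSCA20, OSCA23 and OSCA59 also had flatter chromosome medians and lower mitosis genes than OSCA75 and OSCA71, as given below. The groups rest on the labels, and the identity of the cultures was not tested.

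**Figure D1:**
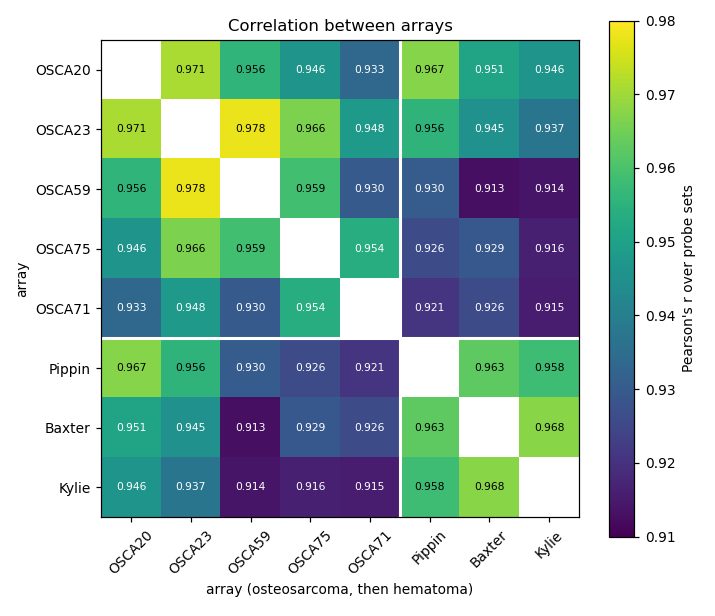
Pearson's correlation over all non-control probe sets for each pair of the 8 arrays, with osteosarcoma lines first and hematoma cultures last and white lines between the groups. OSCA20 and Pippin form the closest pair across the groups at 0.967, and OSCA59 with Baxter the most distant at 0.913.

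RNA condition was read from control probe sets on the array. An actin control had a 3′ minus 5′ signal of 1.27 ± 0.65 (SD, n = 5) in the lines and of -0.26 ± 0.66 (SD, n = 3) in the cultures from hematomas, with no overlap (exact permutation test, p = 0.0357). Another actin control gave -0.17 ± 0.37 and -0.44 ± 0.25, which overlapped (exact permutation test, p = 0.25). The GAPDH control lay the other way, at 0.12 ± 0.28 in the lines and 0.44 ± 0.01 in the hematomas (exact permutation test, p = 0.143), and another GAPDH control gave 0.36 ± 0.09 and 0.27 ± 0.04 (exact permutation test, p = 0.143). The hybridization controls, which are added to each sample in fixed amount, read 9.66 in OSCA20 and 9.99 to 10.57 in the other lines, and 9.15 to 9.92 in the hematomas (exact permutation test, p = 0.0714). In the hemangiosarcoma lines they read 8.95 to 9.54, below every osteosarcoma line. The labels give no batch or scan date, and batches were not examined. The part of these values in the results that follow was not tested.

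Of 23062 probe sets tested, 1096 passed, or 4.75%, with 380 higher and 716 lower in osteosarcoma lines. In genes, 178 were higher (1.84% of those tested) and 216 were lower (2.23%). The osteosarcoma and hematoma values of a gene did not overlap in 1870 genes, or 19.3%, with 1047 entirely above and 823 entirely below. At an unadjusted p under 0.05 in limma, 2719 of the 23062 probe sets were higher and 3379 lower. Counts at that level in the gene lists below stand against this background. The count of probe sets that passed depended strongly on single arrays. Without OSCA20 it rose to 2801, and without OSCA23, OSCA59 or OSCA75 it was 122, 111 or 189. Without Pippin, Baxter or Kylie it was 403, 59 or 43. Only 10 of the 178 higher genes and 2 of the 216 lower genes passed in every comparison that left out 1 of the 8 arrays, so the description below begins with these. Where a hematoma was left out, the filter was looser, and a probe set had to lie above the array median on only 2 arrays. When the same 5 osteosarcoma arrays were set against the 10 hemangiosarcoma lines, 2489 of 9624 genes passed, or 25.9%. The comparisons share the osteosarcoma arrays, so hemangiosarcoma levels are given below only side by side.

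Of the genes furthest above the hematomas, EPDR1, a secreted ependymin-related protein, read 10.37, 10.18, 9.65, 9.02 and 12.03 in OSCA20, OSCA23, OSCA59, OSCA75 and OSCA71, against 4.6, 4.52 and 5.03 in Pippin, Baxter and Kylie. The difference was 5.53 ± 0.58 (SE, adjusted p = 0.00654). All 5 lines lay far above the hematomas, whose values were below the medians of their arrays. In RNA from whole cultures, fewer cells of a type and less RNA per cell cannot be told apart, here and in each result below. HAPLN1, which links proteoglycans to hyaluronan in cartilage and other matrices, read 9.56, 10.13, 10.29, 10.13 and 8.54 against 4.09, 5.56 and 4.07, a difference of 5.16 ± 0.49 (adjusted p = 0.00356). It was the only one of the 6 cartilage genes tested to pass, and the median difference of that list was 0.35 against 0.04 over all genes. ACKR3, a scavenging receptor for the chemokine CXCL12, read 10.47, 8.97, 11.49, 9.47 and 10.77 against 4.48, 4.98 and 5.80, a difference of 5.15 ± 0.57 (adjusted p = 0.00749).

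CCBE1, a secreted protein that assists the processing of the lymphatic growth factor VEGFC, read 10.49, 8.49, 9.85, 9.35 and 9.48 against 4.41, 4.65 and 4.27. The difference was 5.09 ± 0.40 (adjusted p = 0.00139). SMOC2, a calcium-binding matrix protein, had the tightest values of these genes, with 9.01, 8.80, 8.77, 8.37 and 8.29 against 4.52, 4.29 and 4.75, a difference of 4.13 ± 0.23 (adjusted p = 0.000387). SNCAIP, which encodes synphilin-1, a partner of alpha-synuclein, read 8.45, 8.14, 7.89, 6.66 and 8.90 against 3.95, 3.58 and 3.95, a difference of 4.18 ± 0.45 (adjusted p = 0.00665). Its other probe set differed by 1.07 without passing (adjusted p = 0.0872). OSCA20 was not the line nearest the hematomas in EPDR1, HAPLN1, ACKR3, CCBE1, SMOC2 or SNCAIP, and these 6 genes passed in each of the 8 comparisons with an array left out. Apart from ACKR3, each of them had every hematoma below its array median. They were thus admitted to testing by the lines alone. The hemangiosarcoma lines were mostly low as well, with ranges of 4.6 to 5.26 in ACKR3, 4.13 to 4.67 in CCBE1 and 3.63 to 4.96 in HAPLN1, whereas single lines reached 8.84 in EPDR1 and 9.71 in SMOC2.

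A further 4 genes among the 10 with the largest differences passed less steadily. PTPRR, FNDC1 and TNFAIP8L3 had every hematoma below its array median and were admitted to testing by the lines alone. PTPRR, a receptor-type tyrosine phosphatase, read 6.77 to 11.30 in the lines and 3.43 to 4.13 in the hematomas, a difference of 5.38 ± 0.90 (adjusted p = 0.0265). It missed the threshold without OSCA23, OSCA59, OSCA75 or any 1 hematoma, at differences that stayed between 4.86 and 5.99. FNDC1, a secreted protein with fibronectin repeats, read 7.51 to 10.77 against 4.07 to 4.16, a difference of 4.89 ± 0.65 (adjusted p = 0.0139), and missed the threshold without Baxter or Kylie (4.46 to 5.27 over all arrays left out). Another tested probe set of FNDC1 differed by 0.37, with overlap and without passing (adjusted p = 0.33). DPT, the matrix protein dermatopontin, read 10.05 to 12.89 against 5.30, 4.6 and 8.49, a difference of 4.78 ± 0.93 (adjusted p = 0.0339). Kylie was the hematoma nearest the lines in DPT, and the call was lost without OSCA23, OSCA59, OSCA75, Pippin or Baxter, at differences of 4.02 to 5.96 over all 8 comparisons. TNFAIP8L3, a phosphoinositide transfer protein, read 6.89 to 11.53 against 3.58 to 5.13, a difference of 4.67 ± 0.89 (adjusted p = 0.033), and was lost without OSCA23, OSCA59 or any 1 hematoma, at differences of 3.98 to 5.16. Its other probe set differed by 2.99, without overlap and without passing (adjusted p = 0.0709).

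UBL5, FBXO7 and RFNG completed the set of 10 higher genes that passed with any array left out, and are named because of that result, after their values were seen. UBL5, a ubiquitin-like protein with a part in splicing, read 10.14 to 10.55 in the lines against 8.42 to 8.65, a difference of 1.74 ± 0.20 (adjusted p = 0.0077). FBXO7, a substrate adaptor of a ubiquitin ligase, read 9.84 to 10.25 against 7.43 to 8.33, a difference of 2.21 ± 0.24 (adjusted p = 0.00665). RFNG, a glycosyltransferase that modifies Notch receptors, read 9.65 to 10.15 against 7.75 to 8.07, a difference of 1.94 ± 0.19 (adjusted p = 0.00492). The 5 lines were close together in each of these genes, and the groups did not overlap.

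**Figure D2:**
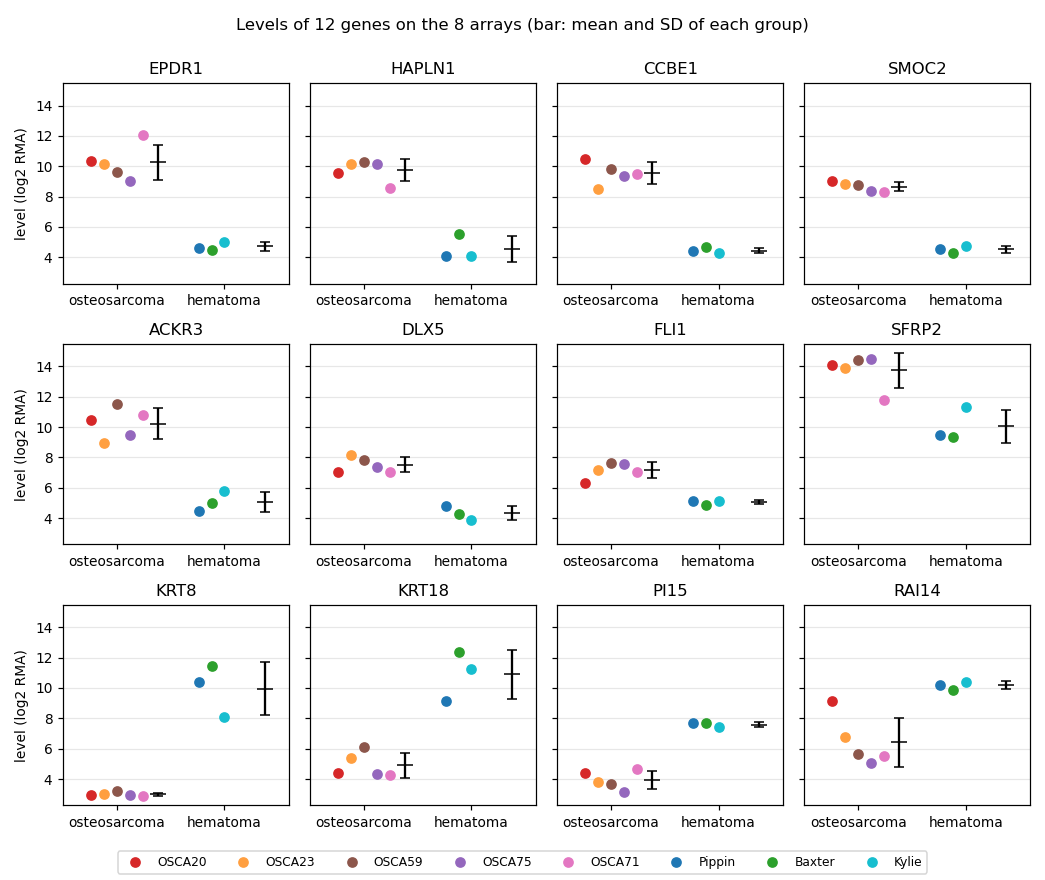
Log2 RMA levels of 12 genes that passed, with 1 colored point for each of the 5 osteosarcoma lines and 3 hematoma cultures and a bar at the mean and SD of each group. The first 8 genes were higher in osteosarcoma and the last 4 lower, and in RAI14 the point of OSCA20, at 9.12, lies near the hematomas at 9.88 to 10.41.

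The osteoblast label was read from its own gene list. Of 18 genes for osteoblast regulators and enzymes on the array, 8 were tested, 3 were higher, 5 did not pass, and the median difference was 0.95. The mean level of these 8 genes was 7.39 to 7.51 in the 5 lines and 6.26 to 6.47 in the hematomas. It includes the 3 higher genes, DLX5, MSX2 and MSX1, and is not evidence separate from them. Over all 18 genes on the array the mean was 5.74 to 6.08 in the lines and 5.16 to 5.34 in the hematomas. DLX5, a homeobox factor that promotes osteoblast differentiation, read 7.07, 8.16, 7.86, 7.39 and 7.03 against 4.79, 4.29 and 3.90, a difference of 3.18 ± 0.33 (adjusted p = 0.00609), and passed with any array left out. MSX2, a homeobox factor of skeletal and skull development, read 7.84, 7.36, 7.21, 8.33 and 7.20 against 6.40, 4.52 and 4.82, a difference of 2.34 ± 0.46 (adjusted p = 0.0339). Its relative MSX1 read 6.0, 6.37, 5.97, 5.53 and 5.24 against 4.5, 4.49 and 4.59, a difference of 1.30 ± 0.27 (adjusted p = 0.0382). Both MSX genes separated the groups fully. DLX5 and MSX1 had every hematoma below its array median and were admitted to testing by the lines alone. MSX2 missed the threshold without OSCA23, OSCA59, OSCA75, Baxter or Kylie (differences of 1.98 to 2.92 over all arrays left out), and MSX1 without OSCA75 or any 1 hematoma (1.28 to 1.44). Without OSCA20, OSCA23 or OSCA59, MSX1 was too low to be tested.

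Several defining genes of osteoblasts lay below the medians of the arrays, near 5.6. RUNX2, the master regulator of the lineage, read 5.12 to 5.62 in the lines and 4.95 to 5.05 in the hematomas, and was too low to be tested. ALPL, which encodes the alkaline phosphatase of mineralizing cells, was not tested either and read 5.43, 6.25, 5.56, 5.6 and 6.93 against 4.88, 4.67 and 4.55. Every line exceeded every hematoma in ALPL, but only OSCA71 and OSCA23 lay clearly above the middle of their arrays. IBSP, bone sialoprotein, read 3.17 to 3.50 and 3.04 to 3.41, and SPP1, osteopontin, read 3.68 to 5.23 and 2.87 to 3.57. BGLAP, osteocalcin, differed by 0.71 ± 0.23 (adjusted p = 0.0989). COL1A1, the main collagen of bone and of most connective tissue, was high in both groups, at 14.44, 13.85, 13.87, 11.26 and 13.42 against 13.85, 14.03 and 13.27 (difference -0.35 ± 0.64, adjusted p = 0.759). None of the 8 bone matrix genes tested passed in limma, 1 had an unadjusted p under 0.05, and their median difference was 0.33. SP7 had no probe set of their own. Every line thus exceeded every hematoma in DLX5, MSX1 and MSX2, which passed. RUNX2, ALPL and SPP1 separated the groups too without being tested, and BGLAP without passing. Other probe sets of RUNX2, ALPL and BGLAP overlapped. IBSP and SPP1 were low in both groups, and IBSP and COL1A1 overlapped.

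Genes of limb and positional patterning lay higher in the lines for 10 of the 11 tested, with a median difference of 1.58, yet only EMX2 passed. Of the 11, 8 had an unadjusted p under 0.05 in limma, all higher in the lines. EMX2, a homeobox factor of shoulder blade and urogenital development, read 5.59, 6.60, 6.92, 6.60 and 6.04 against 4.84, 4.46 and 4.47, a difference of 1.76 ± 0.31 (adjusted p = 0.0289), and missed the threshold without OSCA23, OSCA59, OSCA75 or any 1 hematoma (1.62 to 1.95). Every hematoma lay below its array median in EMX2, which was admitted to testing by the lines alone. HOXA5, a positional gene named here after its values were seen, read 7.81, 8.54, 10.05, 9.0 and 9.07 in the lines, 9.56 in Pippin, and 4.38 and 3.88 in Baxter and Kylie. The hematomas were thus split, and Pippin lay within the range of the lines. Among 8 tested genes of splenic mesenchyme, MEIS1, a homeobox cofactor, was lower, with 5.23, 5.20, 5.63, 5.73 and 5.09 against 7.24, 6.70 and 8.43 (difference -2.09 ± 0.37, adjusted p = 0.0289). It missed the threshold without OSCA23, OSCA59, OSCA75 or any 1 hematoma (-2.46 to -1.6). NKX2-5, also from that list and chosen after its values were seen, read 5.17 to 5.85 in the lines, 5.6 in Pippin and 9.07 and 8.57 in Baxter and Kylie.

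Among endothelial and blood cell markers, PECAM1, a junction protein of endothelium, read 4.16 to 4.74 in the lines and 4.23 to 4.48 in the hematomas, and VWF, von Willebrand factor, read 4.76 to 4.91 and 4.40 to 4.68. VWF was slightly higher in every line than in every hematoma. Both were too low to be tested, also in the hematoma cultures that had been grown for endothelial cells. KDR, the main receptor for VEGFA, differed by 0.00 ± 0.43 (adjusted p = 0.996). FLI1, a transcription factor of endothelial and blood cells, was the only endothelial gene of 8 tested to pass, at 6.33, 7.17, 7.67, 7.56 and 7.03 against 5.16, 4.88 and 5.14, a difference of 2.09 ± 0.31 (adjusted p = 0.0202). The call was lost without OSCA23, Baxter or Kylie (1.96 to 2.3). Every hematoma lay below its array median in FLI1, which was admitted to testing by the lines alone. Of the 8, 5 had a positive difference, 3 lay entirely above the hematomas, 3 had an unadjusted p under 0.05, and the median was 0.22. PTPRC, the leukocyte antigen CD45, read 4.45 to 4.94 and 4.10 to 4.57, and the macrophage marker CD68 differed by 0.04 ± 0.22. None of the 7 myeloid genes and none of the 5 lymphocyte genes tested passed in limma (2 and 1 at an unadjusted p under 0.05), with median differences of 0.41 and 0.26.

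Among genes that passed without overlap, those furthest below the hematomas were 2 simple epithelial keratins. KRT8, an intermediate filament protein of simple epithelia, read 2.98, 2.98, 3.19, 2.92 and 2.88 in the lines, near the lowest values of the arrays, against 10.38, 11.43 and 8.07. The difference was -6.97 ± 0.62 (adjusted p = 0.00267), whose size depends on how the array reads such low values. KRT8 passed with any array left out, but it lay below the array medians in every line. It was admitted to testing by its hematoma values alone. Its partner KRT18 read 4.41, 5.41, 6.09, 4.33 and 4.23 against 9.15, 12.34 and 11.25, a difference of -6.02 ± 0.71 (adjusted p = 0.00937), and missed the threshold only without Kylie (-5.31 to -6.90 over the arrays left out). OSCA20 was as low as the other lines in both keratins. The list of simple epithelial genes had 4 tested members, of which 2 were lower, and the other 2 did not pass. PI15, a secreted peptidase inhibitor, was the other lower gene that passed with any array left out, at 4.37, 3.79, 3.64, 3.14 and 4.65 against 7.67, 7.66 and 7.42 (difference -3.66 ± 0.34, adjusted p = 0.0033). PI15 too was admitted to testing by the hematomas alone. The hemangiosarcoma lines were spread widely in KRT8, from 3.07 to 10.63 with a median of 9.51, and in KRT18, from 3.73 to 13.21, and read 2.90 to 6.45 in PI15.

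Among other genes far below the hematomas, PKP2, a plaque protein of desmosomes, read 7.23, 6.68, 6.38, 4.77 and 6.11 against 10.80, 9.39 and 8.95 (difference -3.48 ± 0.58, adjusted p = 0.0265). TFPI, the inhibitor of the tissue factor pathway of coagulation, read 6.33, 6.52, 6.29, 5.0 and 4.69 against 8.29, 9.98 and 9.5 (difference -3.49 ± 0.54, adjusted p = 0.0222). MAOA, a monoamine oxidase, read 6.09, 5.61, 6.0, 7.28 and 9.12 against 10.72, 10.37 and 9.70 (difference -3.45 ± 0.74, adjusted p = 0.0408), with OSCA71 near the hematomas. The other MAOA probe set differed by -3.68, without overlap and without passing (adjusted p = 0.0671). PKP2 missed the threshold without OSCA23, OSCA59 or any 1 hematoma (-3.86 to -2.94). TFPI missed it without OSCA59, Baxter or Kylie (-3.98 to -3.13), and MAOA without OSCA23, OSCA59, OSCA75 or any 1 hematoma (-4.02 to -3.14).

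The remaining genes of the 10 furthest below the hematomas had OSCA20 closest to the hematomas. RAI14, an actin-binding protein, read 9.12 in OSCA20 and 6.74, 5.62, 5.04 and 5.54 in OSCA23, OSCA59, OSCA75 and OSCA71, against 10.22, 9.88 and 10.41 (difference -3.76 ± 0.83, adjusted p = 0.042). DDX6, an RNA helicase of mRNA turnover, read 8.02 in OSCA20 and 5.36 to 6.01 in the others, against 8.54, 9.97 and 9.44 (difference -3.15 ± 0.60, adjusted p = 0.0327). YEATS2, a histone-binding subunit of an acetyltransferase complex, read 5.95 in OSCA20 and 3.85 to 4.22 in the others, against 7.31 to 7.86 (difference -3.11 ± 0.46, adjusted p = 0.0202), and ZNF655, a zinc finger protein, read 7.01 and 3.42 to 4.61 against 7.46 to 8.41 (difference -3.10 ± 0.71, adjusted p = 0.0455). RAI14 and ZNF655 kept their calls in 1 of the 8 comparisons with an array left out, that without OSCA20 (-4.43 to -3.41 and -3.67 to -2.77 over all 8). DDX6 was lost without OSCA23, OSCA59, OSCA75, Baxter or Kylie (-3.62 to -2.83), and YEATS2 without OSCA23, OSCA59, Baxter or Kylie (-3.48 to -2.96).

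This pattern held for most lower genes and not for higher ones. OSCA20 was the line nearest the hematomas in 147 of the 216 lower genes, or 68.1%, and in 47 of the 178 higher genes, or 26.4%. Its median difference from the hematoma mean was -0.98 over the lower genes, against -1.63 to -1.93 in the other 4 lines, and 1.42 over the higher genes, against 1.44 to 1.75. The lower genes were also long, with a median genomic span of 59724.5 bases, whereas it was 16474 bases for higher genes and 25142 for all genes tested, counted over the 94.5% of genes with a span in the UU_Cfam_GSD_1.0 annotation of RefSeq. Where a called gene had other probe sets, 138 of 146 had the same sign for higher genes and 123 of 131 for lower genes, and none passed in the opposite direction. Other tested probe sets of EPDR1, CCBE1, SMOC2, KRT18, RAI14, LAMC1, IFI44 and SFRP2 passed in the same direction. Untested ones of MSX2, FLI1, PTPRR and PI15 overlapped between the groups, as did some of AXIN2. Without OSCA20 and OSCA71 together, 3247 probe sets passed, 1144 higher and 2103 lower. The part of span, of RNA condition and of OSCA20 in the lower genes was not tested.

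**Figure D3:**
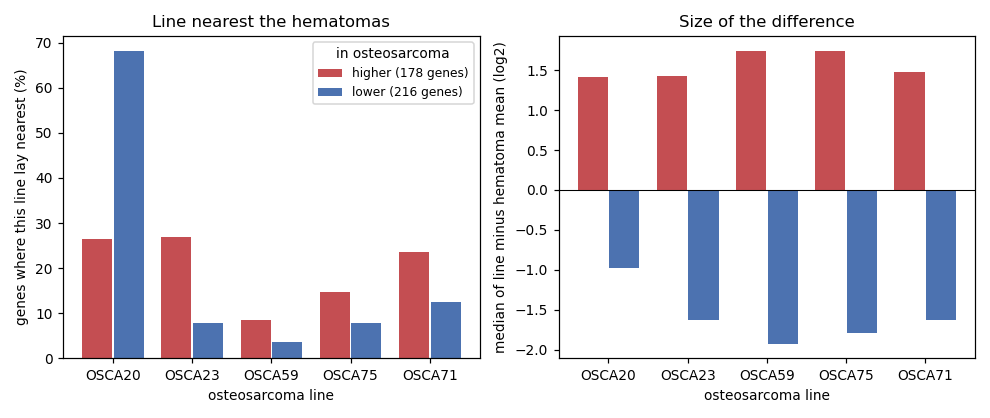
For each osteosarcoma line, the left panel gives the percent of called genes in which that line lay nearest the hematomas, and the right panel the median of its level minus the hematoma mean (log2), for 178 higher and 216 lower genes. OSCA20 lay nearest in 68.1% of lower genes, and its median there was the smallest in size at -0.98.

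Matrix and growth factor genes gave a mixed picture. In the basement membrane list 1 of 13 tested genes was lower, and 12 did not pass. The list was split, with 6 positive and 7 negative differences, and 10 genes had an unadjusted p under 0.05, of which 3 were higher. Its median difference of -1.18 is the smallest of the negative ones in size. LAMB2, a laminin beta chain named after its values were seen, read 9.15 to 11.41 in the lines against 8.33 to 8.89 (difference 1.54 ± 0.44) without passing. LAMC1, the gamma chain shared by most laminins, read 9.32, 7.91, 7.31, 7.49 and 6.36 against 9.97, 10.91 and 10.89 (difference -2.91 ± 0.58, adjusted p = 0.0356). It missed the threshold without OSCA23, OSCA59, OSCA75 or any 1 hematoma (-3.32 to -2.58), and OSCA20 was again the nearest line. None of 25 interstitial collagen and crosslinking genes and none of 17 matrix proteases and inhibitors passed in limma (2 and 5 at an unadjusted p under 0.05), and the medians of these lists, -0.06 and -0.01, were close to that of all genes. Of 21 pericyte and fibroblast genes 17 had a positive difference and DPT alone passed, with a median of 1.20.

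In the IGF axis, which carries insulin-like growth factor signals, 1 of 13 tested genes was higher and 2 were lower, with a median difference of -0.05. IGFBP4, a binding protein that holds IGF inactive, read 11.11, 11.06, 12.70, 11.44 and 11.49 against 8.23, 8.46 and 8.96 (difference 3.01 ± 0.39, adjusted p = 0.0128). Of its other probe sets, 1 passed at 3.54 and 1 overlapped without passing, at 0.39 (adjusted p = 0.265). PAPPA, the protease that cleaves IGFBP4, read 5.93, 5.76, 5.77, 5.27 and 5.18 against 6.56, 8.28 and 7.92 (difference -2.01 ± 0.39, adjusted p = 0.0339), and STC2, an inhibitor of that protease, read 4.56 to 5.50 against 5.88 to 7.57 (difference -1.84 ± 0.42, adjusted p = 0.045). The 3 genes thus separated the groups fully, with the binding protein high and its protease and the inhibitor of the protease low in osteosarcoma. STC2 lay below the array medians in every line and was admitted to testing by the hematomas alone. IGFBP4 was lost without Baxter or Kylie (2.73 to 3.22), PAPPA without OSCA23, OSCA59, OSCA75, Baxter or Kylie (-2.52 to -1.66), and STC2 without OSCA23, OSCA59, OSCA75, OSCA71, Baxter or Kylie (-2.40 to -1.55).

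In the Wnt pathway, which governs bone formation among other processes, 2 of 15 tested genes were higher, 13 did not pass, and 12 had a positive difference, with a median of 0.49. Of the 15, 8 had an unadjusted p under 0.05 in limma, all of them higher. SFRP2, a secreted Wnt modulator, read 14.07, 13.90, 14.43, 14.48 and 11.76 against 9.51, 9.32 and 11.32 (difference 3.68 ± 0.69, adjusted p = 0.0315). AXIN2, a feedback inhibitor and common target of the pathway, read 6.32, 6.72, 7.09, 6.99 and 6.70 against 5.88, 5.63 and 5.70 (difference 1.03 ± 0.22, adjusted p = 0.0408). SFRP2 missed the threshold without OSCA23, OSCA59, OSCA75 or any 1 hematoma (3.32 to 4.32), and AXIN2 kept its call in 1 of the 8 comparisons with an array left out, that without OSCA20 (0.94 to 1.14). None of the 24 tested genes of the BMP and TGF-beta pathway passed in limma (8 at an unadjusted p under 0.05), with 11 positive and 13 negative differences.

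Of the interferon response genes, 1 of 14 passed. IFI44, an interferon-induced protein, read 4.78, 5.22, 5.27, 5.95 and 6.34 against 8.29, 7.52 and 8.42 (difference -2.57 ± 0.38, adjusted p = 0.0205), while 10 of the 14 had a positive difference and the median was 0.18. It was lost without OSCA23, OSCA59, Baxter or Kylie (-2.84 to -2.38). Among 9 neural genes KIF5C, a kinesin motor of axonal transport, was higher, at 8.24 to 9.72 against 7.23 to 7.50 (difference 1.44 ± 0.34, adjusted p = 0.0497), and kept its call in 1 of the 8 comparisons with an array left out, that without OSCA20 (1.23 to 1.6). The other KIF5C probe set differed by 0.65, with overlap and without passing (adjusted p = 0.231). Hemangiosarcoma lines read 8.83 to 10.61 in KIF5C. None of 14 inflammatory, 19 cholesterol synthesis or 12 housekeeping genes passed in limma (4, 1 and 3 at an unadjusted p under 0.05), with median differences of 0.49, 0.24 and -0.03.

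Cell cycle genes varied widely inside both groups and did not separate them. None of 25 mitosis genes and none of 27 DNA replication genes passed in limma (0 and 1 at an unadjusted p under 0.05), with median differences of -0.36 and -0.23. The mean level of the mitosis genes was 9.18 in OSCA75 and 9.67 in OSCA71, and 6.75, 6.81 and 5.71 in OSCA20, OSCA23 and OSCA59. Among hematomas it was 6.07 in Pippin, and 9.21 and 8.62 in Baxter and Kylie. TOP2A, a topoisomerase of dividing cells, read 6.25, 7.86, 6.65, 11.003 and 11.80 in the lines against 5.13, 9.69 and 10.28 (difference 0.35 ± 1.59, adjusted p = 0.912). MCM2, a subunit of the replicative helicase, read 6.95, 5.49, 4.27, 8.01 and 9.18 against 5.38, 8.70 and 6.79 (difference -0.18 ± 1.13). Without OSCA59 or Baxter the median of the mitosis list was 0.15 or 0.32. OSCA75, OSCA71, Baxter and Kylie thus had high levels of division genes and the other 4 arrays low ones, across the labels. MKI67 had no probe set of its own.

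Contractile genes of smooth muscle had a negative difference in 17 of 17 tested, with a median of -1.04, but none passed in limma (4 at an unadjusted p under 0.05). The mean level of the list was 9.25, 10.08 and 10.28 in OSCA20, OSCA23 and OSCA59, 8.96 and 8.55 in OSCA75 and OSCA71, 9.59 in Pippin, and 11.20 and 11.37 in Baxter and Kylie. ACTA2, smooth muscle actin, read 13.95, 14.46, 14.47, 11.67 and 11.51 against 14.20, 14.51 and 14.44 (difference -1.17 ± 0.75, adjusted p = 0.351). OSCA75 and OSCA71 were well below the hematomas in ACTA2, and OSCA20, OSCA23 and OSCA59 near them. TAGLN, the actin-binding protein transgelin, read 13.88, 14.17, 14.32, 13.45 and 11.41 against 13.91 to 14.05, and MYH11, smooth muscle myosin, read 4.53 to 5.89 against 4.73, 6.16 and 9.58. PDGFRB, a receptor of pericytes and fibroblasts, differed by 0.02 ± 0.70. Genes of hypoxia and glycolysis had a positive difference in 24 of 30 tested, with a median of 0.42, and none passed in limma (4 at an unadjusted p under 0.05). OSCA71 had the lowest mean of that list at 8.84, against 10.20 to 10.62 in the other lines and 9.08 to 9.80 in the hematomas.

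**Figure D4:**
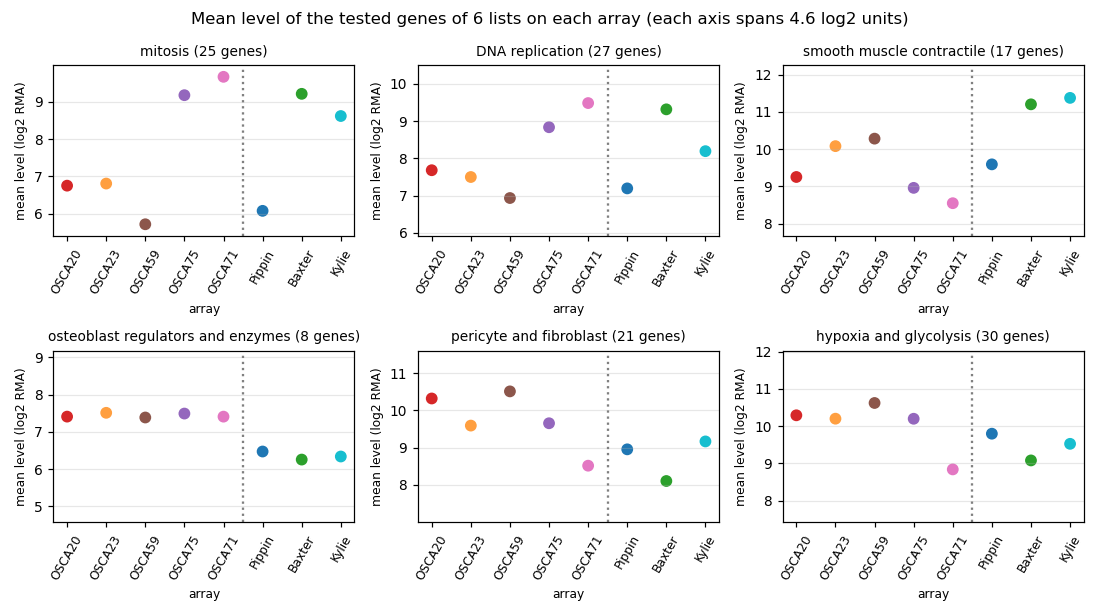
Mean log2 RMA level of the tested genes of 6 lists on each array, with osteosarcoma lines left and hematoma cultures right of the dotted line, all axes spanning 4.6 log2 units. The mean of the 8 osteoblast genes, which include the 3 called higher, separates the groups, at 7.39 to 7.51 and 6.26 to 6.47, as do some lists not shown. The mitosis genes are high in OSCA75, OSCA71, Baxter and Kylie.

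The 10 genes that varied most among the 5 lines separated OSCA71 from the rest in several cases. TFPI2, a protease inhibitor of the matrix, read 11.67, 13.28, 13.10 and 9.57 in OSCA20, OSCA23, OSCA59 and OSCA75 and 4.26 in OSCA71, and THBS2, the matrix protein thrombospondin 2, read 12.21, 12.96, 13.70 and 11.23 and then 5.66. Both were at 12.19 to 13.13 in the hematomas. ASPN, asporin of collagen matrix, was low in OSCA75 and OSCA71, at 7.45 and 5.95, and at 11.67 to 12.31 in the other lines and 11.55 to 12.16 in the hematomas. CA9, a carbonic anhydrase induced by low oxygen, was high in OSCA59 and OSCA75, at 11.32 and 11.72, and 4.81 to 6.93 in the other lines. NDUFA4L2, a mitochondrial protein induced by low oxygen, read 10.79 to 12.48 in 4 lines and 4.74 in OSCA71, while IGFBP2, another IGF binding protein, read 8.82 to 12.96 and 5.27. TKTL1, a transketolase relative, stood at 12.82 in OSCA75 alone, against 4.71 to 6.92, and SPINK5, a serine protease inhibitor, read 11.76 in OSCA71 against 4.75 to 9.03. AMPD1, the adenosine monophosphate deaminase of muscle, was split on both sides, at 9.49 to 10.002 in OSCA20, OSCA59 and OSCA71 and 10.02 in Pippin, and 4.13 to 4.24 in OSCA23, OSCA75, Baxter and Kylie. MMP3, the matrix protease stromelysin, is added after its values were seen, with 12.48 in OSCA71 and 3.04 to 3.56 on the other 7 arrays.

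MTAP, an enzyme of methionine salvage, was among the 10 and had a very low level in 1 line. It read 9.97, 9.53, 9.28 and 8.21 in OSCA20, OSCA23, OSCA59 and OSCA75 and 2.98 in OSCA71, with 8.99 to 9.73 in the hematomas and 9.0 in the lowest hemangiosarcoma line. Its other probe set read 3.89 in OSCA71 and 8.06 to 9.53 on the other 7 arrays. Among genes on the array, MTAP lies on chromosome 11 next to CDKN2B, a cell cycle inhibitor, in UU_Cfam_GSD_1.0. CDKN2B read 3.79 in OSCA71, 4.08 in OSCA75 and 4.69 to 6.49 in the other lines, against 4.41 to 6.29 in the hematomas. On the other side the adjacent LOC611406 read 6.04 in OSCA71 and 5.38 to 6.07 on the other 7 arrays. A few genes farther, HACD4, a fatty acid enzyme, read 6.27 in OSCA71, 9.40 to 10.84 in the other lines and 8.65 to 10.47 in the hematomas. Farther along, PLAA, a ubiquitin-binding protein, read 10.09 in OSCA71 and CAAP1, an apoptosis regulator, 6.97, both within the range of the other lines. These neighbours were chosen after the values of MTAP were seen. CDKN2A had no probe set of its own.

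Levels were then read by chromosome, again in UU_Cfam_GSD_1.0, for 9143 tested genes on 39 chromosomes. For each array the median over the genes of a chromosome was taken of its level minus the hematoma mean, relative to the same median over all genes. For a hematoma the mean of the other 2 hematomas was used. The SD of these medians over the 39 chromosomes was 0.108, 0.115 and 0.152 in OSCA20, OSCA23 and OSCA59, 0.250 in OSCA75 and 0.362 in OSCA71. In the hematomas it was 0.036 to 0.057, and in the 10 hemangiosarcoma lines it ran from 0.032 to 0.305 with a median of 0.068. OSCA71 thus had the largest spread of the 18 cultured arrays, and OSCA20, OSCA23 and OSCA59 lay between the hematomas and the other 2 lines.

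Medians beyond 0.4 in size, a limit set after the values were seen, occurred in 15 pairs of chromosome and line, 9 in OSCA71 and 6 in OSCA75, and in no pair of OSCA20, OSCA23 or OSCA59. They also occurred in 15 pairs in the hemangiosarcoma lines, 8 in Dal4 and 7 in ChadG4. Dal4 passed the limit on some of the same chromosomes as the osteosarcoma lines, at 0.56 on chromosome 13, -0.66 on 16, -0.73 on 22 and -0.64 on 12, and ChadG4 stood at -0.60 on chromosome 12. The smallest inside the limit was 0.406, for chromosome 12 in OSCA71, and the largest outside it 0.389 in size, for chromosome 19 in OSCA59. No hematoma exceeded 0.181 in size on any chromosome. In OSCA71 chromosome 16 had a median of -1.10 over 169 genes, of which 117 (69.2%) lay below all 3 hematomas, against 30.9% over all chromosomes. The other 4 lines lay between -0.02 and 0.09 there. Its chromosome 13 had a median of 0.69 over 172 genes, with 121 (70.3%) above all 3 hematomas against 36.5% over all chromosomes, while the other lines lay between -0.09 and 0.03. MYC, a growth-promoting transcription factor on chromosome 13, read 9.72 in OSCA71 and 8.96 to 9.34 in the other lines, and did not pass between the groups (difference 0.79 ± 0.32, adjusted p = 0.158).

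Cut by gene order into 4 stretches of equal gene number, chromosome 16 was low throughout in OSCA71, at -0.82, -0.83, -1.47 and -1.40, and chromosome 13 was high throughout, at 0.55, 0.52, 0.68 and 0.97. Chromosomes 33, 12 and 23 had medians of 0.44, 0.41 and -0.42 in OSCA71, with the other lines at -0.29 to -0.07, -0.55 to 0.02 and -0.09 to 0.05. In OSCA75 chromosome 2 had a median of -0.60 over 371 genes, with stretches from -0.76 to -0.35, and the other lines lay between -0.07 and -0.05. Chromosomes 12 and 15 stood at -0.55 and -0.46 in OSCA75. Chromosome 12 was thus above the hematomas in OSCA71 and below them in OSCA75. Chromosome 38 stood at -0.45 in OSCA75 and rested mostly on 1 of its 4 stretches of 20 genes, at -1.05, with the others at -0.16, -0.35 and 0.00.

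Chromosomes 19, 22, 29 and 36, which also exceeded the limit, had negative medians in every line. The median of chromosome 22 was -1.05 in OSCA71 and -0.78 in OSCA75, and -0.26, -0.28 and -0.25 in OSCA20, OSCA23 and OSCA59, while Baxter stood at -0.18. That of chromosome 29 was -0.85 in OSCA71 and -0.33 to -0.26 in the other lines, that of chromosome 19 was -0.68 and -0.54 in OSCA71 and OSCA75 and -0.39 to -0.14 in the others, and that of chromosome 36 was -0.52 in OSCA71 and -0.26 to -0.13 in the others. RB1, a cell cycle inhibitor on chromosome 22, read 4.28, 5.10, 5.26, 4.39 and 4.09 in the lines against 8.19, 4.82 and 7.80, and was too low to be tested. Baxter lay among the lines in RB1. These medians were recomputed with all genes on the array, with genes above the median on all 8 arrays, and against each hematoma alone. In these 5 alternatives chromosome 16 in OSCA71 ranged from -1.29 to -0.39, chromosome 13 from 0.31 to 0.76 and chromosome 22 from -1.15 to -0.46, and chromosome 2 in OSCA75 from -0.64 to -0.32. Others shrank further, to -0.07 for chromosome 38 in OSCA75 and to -0.20 and -0.27 for chromosomes 36 and 29 in OSCA71. None of the 15 medians changed sign, but 14 of them fell inside the limit of 0.4 in at least 1 alternative. All of them are levels of RNA, and DNA copy number was not measured. OSCA75 and OSCA71 were also the lines with the highest levels of mitosis genes, and the relation was not tested.

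**Figure D5:**
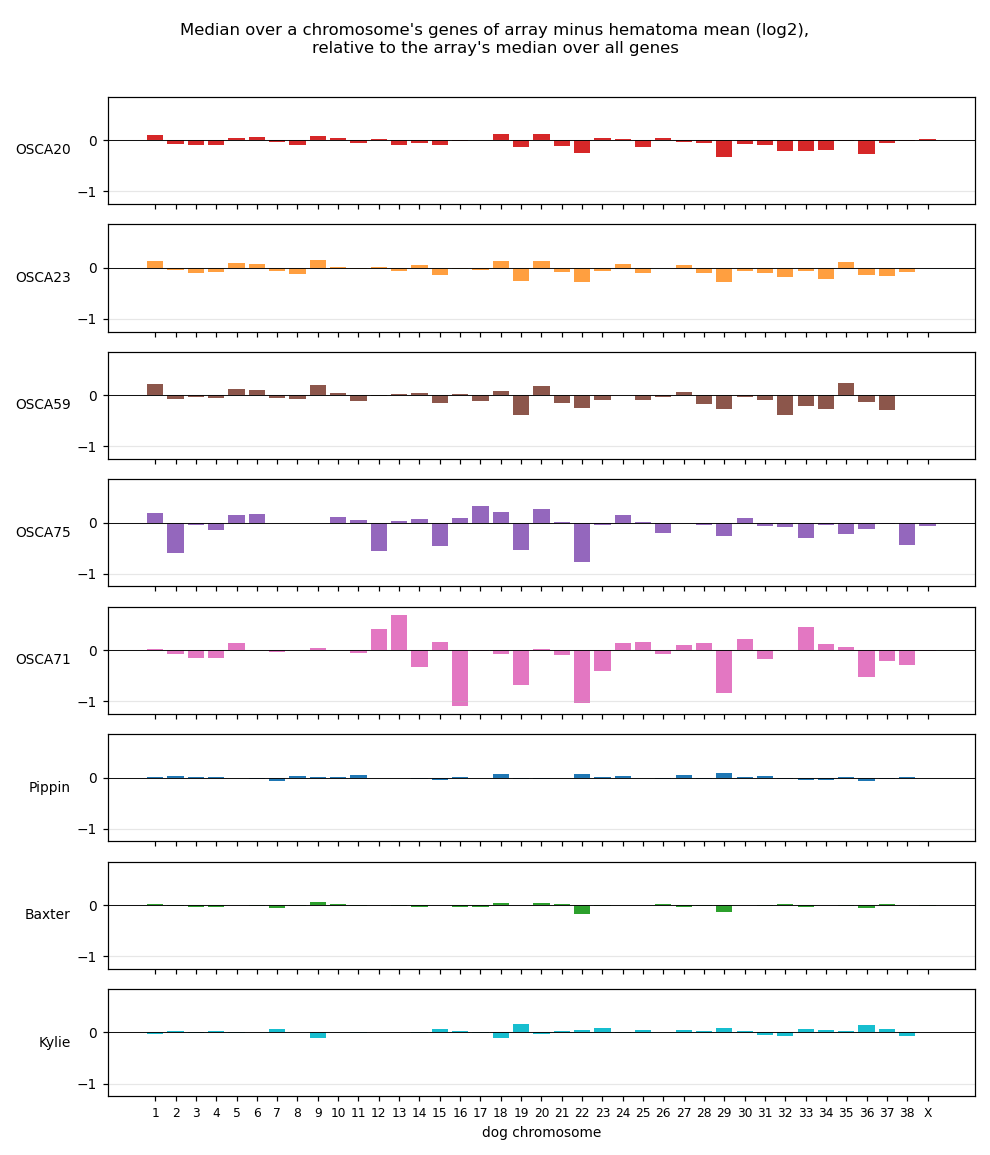
For each of the 8 arrays, bars give the median over the genes of each dog chromosome of the level minus the hematoma mean (log2), relative to the median over all genes of that array, on 1 common scale. Bars of OSCA75 and OSCA71 reach -0.78 and -1.10, those of OSCA20, OSCA23 and OSCA59 stay within 0.39 in size, and those of the hematomas within 0.18.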

How the data were processed

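RNA from cultured cells was hybridized to Affymetrix Canine_2 arrays, 1 per line or culture. The deposited table holds log2 intensities of 43035 probe sets, computed by the authors from the scans by RMA (affy package, per the submitters' processing notes). Versions, and whether all arrays went through 1 run, are not given in the sources used here. No further normalization was applied. The 175 control probe sets were left out. Of the remaining 42860, 29254 carried 1 symbol in the array annotation, 439 several and 13167 none, and 27680 matched the RefSeq table by gene number.

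Groups came from the labels. limma 3.58.1 (R 4.3.3) was fitted to the 8 arrays, and to 15 arrays for hemangiosarcoma, where a probe set had to lie above the array median on at least 5. The fits were tested on simulated data. Single values were compared with exact permutation tests over 56 regroupings, two-sided (scipy 1.17.1). The number of arrays limits the precision of every difference.

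Named genes were the 10 with the largest difference in each direction among those passed without overlap, up to 4 passed members of each of 26 lists (571 of 656 genes on the array), 26 fixed marker genes, of which 6 had no probe set, and the 10 that varied most among lines. Members and lists were chosen with earlier results of these data known. Alternatives were other filters, scalings, tests, weights and sample sets, sex as a covariate, and leaving out each array.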

Additional observations from a re-analysis of the deposited data

Results flagged for a closer look

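A single line lay far from the other 4 osteosarcoma lines in 4 of the named genes that passed, by a gap test that flags about 1 in 20 groups by chance. OSCA20 stood alone at the high end in DDX6, at 8.02 against 6.01 for the next line, and in YEATS2, at 5.95 against 4.22. OSCA71 stood alone at the low end in SFRP2, at 11.76 against 13.90 for the next line. OSCA59 stood alone at the high end in IGFBP4, at 12.70 against 11.49. Groups of 3 arrays were not examined this way. Why these lines differed was not tested.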

How the results depend on the processing

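The number of probe sets that passed between osteosarcoma and hematoma was 1096, and within 1.5 times that with no filter, centered or requantiled arrays, or a trend with a robust prior. It was 607 with a filter at 5 arrays, 95 with Student's t-test for the same values, 309 without probe sets that can match several transcripts (164 higher and 145 lower, which turns the split), 3869 with array weights, 3389 with all 34 arrays and 4521 with the 18 cultured arrays in 1 fit, 269 with sex as a covariate, and 44 with golden retrievers alone, where Pippin was the 1 hematoma and was assumed to vary like the lines. Without OSCA20 and OSCA71, chosen after the data were seen, it was 3247. Leaving out 1 array gave 43 to 2801. Against hemangiosarcoma the count was 6365, 3399 without probe sets that can match several transcripts, 3619 with golden retriever lines alone, and 4791 to 7274 with 1 array left out. The difference in correlation was 0.0183 to 0.0306 with 1 array left out, where the smallest p is 0.0571 or 0.0952. Without OSCA23, OSCA59 or OSCA75 the exact permutation test gave p = 0.114, above the smallest value of 0.0571. Of the 34 named genes that passed, none changed sign in a setting, 27 passed without a filter, 21 with sex as a covariate, 8 by Student's t-test and 3 with golden retrievers alone. In the gene lists where limma passed no member, Student's t-test with the same adjustment passed none either. This says little, because that test passed only 95 probe sets in all. Where limma did pass members, it passed 1 gene each of the osteoblast regulator, cartilage and simple epithelial lists. It passed none in the other lists. No paired analysis was possible because each array came from a separate dog.

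Among named genes, sign changes were seen only in fixed marker genes that had not passed. The median of the mitosis list also changed sign with an array left out, as given above. With 1 array left out the difference ran from -0.62 to 0.18 in COL1A1, -0.27 to 0.99 in SOX9, -1.27 to 1.30 in TOP2A, -0.97 to 0.70 in MCM2, -0.49 to 0.36 in PDGFRB, -0.36 to 0.57 in KDR and -0.17 to 0.22 in CD68. TOP2A was -0.94 and PDGFRB -0.52 by the other probe set. With centered arrays PDGFRB was -0.036, KDR -0.049 and CD68 -0.016, and with array weights PDGFRB was -0.22 and CD68 -0.021. In golden retrievers MCM2 was 1.40, MYH11 0.24 and CD68 -0.025, and without OSCA20 and OSCA71 PDGFRB was -0.20. The causes were not tested.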
